A study of Bos taurus with 8 samples.

Results

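The genes described here encode the collagens, the laminins, the integrins and 5 further matrix proteins of the cow. These 5 are fibronectin (FN1), the nidogens NID1 and NID2, the matricellular protein SPARC and perlecan (HSPG2). They were chosen by gene symbol and not by any measured value, and they make up 77 of the 15229 named genes on the array. A single probe, that with the highest mean intensity, stood for each gene. Of the 77 genes, 52 encode matrix proteins and 24 encode integrin chains. The remaining symbol, COL4A3BP, belongs to the gene now called CERT1, a ceramide transfer protein, and is kept out of both groups.

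RNA came from bovine blastocysts that had formed in vitro from oocytes of slaughterhouse ovaries, and maturation, fertilisation and culture took place in vitro in each group. Oocytes of the INS10 group were matured with bovine insulin at 10 µg/ml, those of the INS0.1 group with 0.1 µg/ml, and those of the control group without added insulin. Each of the 8 arrays carried insulin RNA and control RNA in opposite dyes, with 4 arrays per dose. On replicates 1 and 2 the insulin RNA was in Cy5, and on replicates 3 and 4 it was in Cy3. Per the labels, the 4 replicates of a condition are biological ones, but how many embryos made up each is not stated in the sources used here. The p-values below measure the spread between arrays, and the main fit took the 8 arrays as independent. Arrays of the same replicate number may share control RNA, which that fit leaves out. A fit with a block on the replicate number is given as an alternative.

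A basement membrane is built from laminin, a trimer of an alpha, a beta and a gamma chain, and from a network of type IV collagen, with nidogen and perlecan linking both. Cells hold on to laminin, collagen and fibronectin through integrins, receptors of an alpha and a beta chain that span the cell membrane and connect to actin inside the cell. In the mammalian blastocyst, laminin and type IV collagen line the inner face of the trophectoderm and are secreted by the hypoblast, and trophoblast integrins bind matrix as the embryo attaches to the uterus.

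The median spot of an array had an intensity of 163 to 255 in the Cy5 channel and 234 to 348 in the Cy3 channel. A probe counted as detected in a reading (1 dye on 1 array, 16 readings in all) where it was over 2 SD above the mean negative control spot. At least 4 readings were reached by 14 of 14 trophectoderm, 10 of 11 inner cell mass and 11 of 12 hypoblast markers. The share over the named genes was 76.9%. All 16 readings were reached by 11 of 14, 8 of 11 and 6 of 12 of these markers, against 45.3%. One of the INS0.1 arrays, replicate 1, did not follow the rest. On it, the 274 probes called higher from the INS10 arrays taken by themselves had a median log2 ratio of 0.05, whereas the other INS0.1 arrays gave 0.80 to 0.97. Without this array ITGB5 was still the called gene with insulin at either dose, and 0 genes were called in the other comparisons.

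Of the 77 genes, 56 (72.7%) were detected in at least 4 readings, where 76.9% of the named genes were. Detection in all 16 readings was reached by 17 of 52 matrix genes (32.7%) and by 5 of 24 integrins (20.8%), against 45.3% of the named genes. The matrix genes with 16 readings included the chains of the main embryonic laminin (LAMA1, LAMB1 and LAMC1), the laminin alpha chain LAMA5, NID1, NID2, HSPG2, FN1, SPARC and the type IV collagens COL4A1 and COL4A5. Among the collagens outside type IV they were COL1A2, a chain of fibrillar type I collagen, COL12A1, which decorates collagen fibrils, the basement membrane collagens COL15A1 and COL18A1, and COL9A2 and COL19A1. The integrins with 16 readings were ITGA5, the alpha chain of the fibronectin receptor, the laminin-binding alpha chains ITGA6 and ITGA7, ITGAE and ITGB5.

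At the other end, 10 genes had 0 readings above background and 11 had 1 to 3. Those with 0 were COL6A1, COL6A3, COL8A2, COL16A1, COL20A1, ITGA2B, ITGA4, ITGAL, ITGAM and ITGB8. Several of these integrin chains are known from blood cells: ITGA2B from platelets, and ITGAL and ITGAM from leukocytes. COL4A2 (3 readings), LAMA4 (3), ITGA1 (3), ITGA9 (3), COL10A1, COL9A3 and ITGB2 (2 each) and COL11A1, COL6A6, COL4A4 and LAMC3 (1 each) made up the rest. Some chains that assemble together differed in their number of readings, while LAMA1, LAMB1 and LAMC1 each had 16. COL4A1 had 16 readings and its partner COL4A2 had 3, and COL1A2 had 16 while COL1A1 had 5. Some of these genes are also neighbours in the RefSeq table (COL4A1 beside COL4A2, COL6A1 beside COL6A2, COL4A3 beside COL4A4, ITGA1 beside ITGA2). In each of these pairs a gene passed and its neighbour did not, with only 4 and 3 readings for ITGA2 and ITGA1. In the neighbouring pairs COL19A1 and COL9A1 (16 and 7 readings) and COL4A5 and COL4A6 (16 and 9), both genes passed. A probe that stayed in the background gives no evidence that its transcript was missing.

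**Figure D1:**
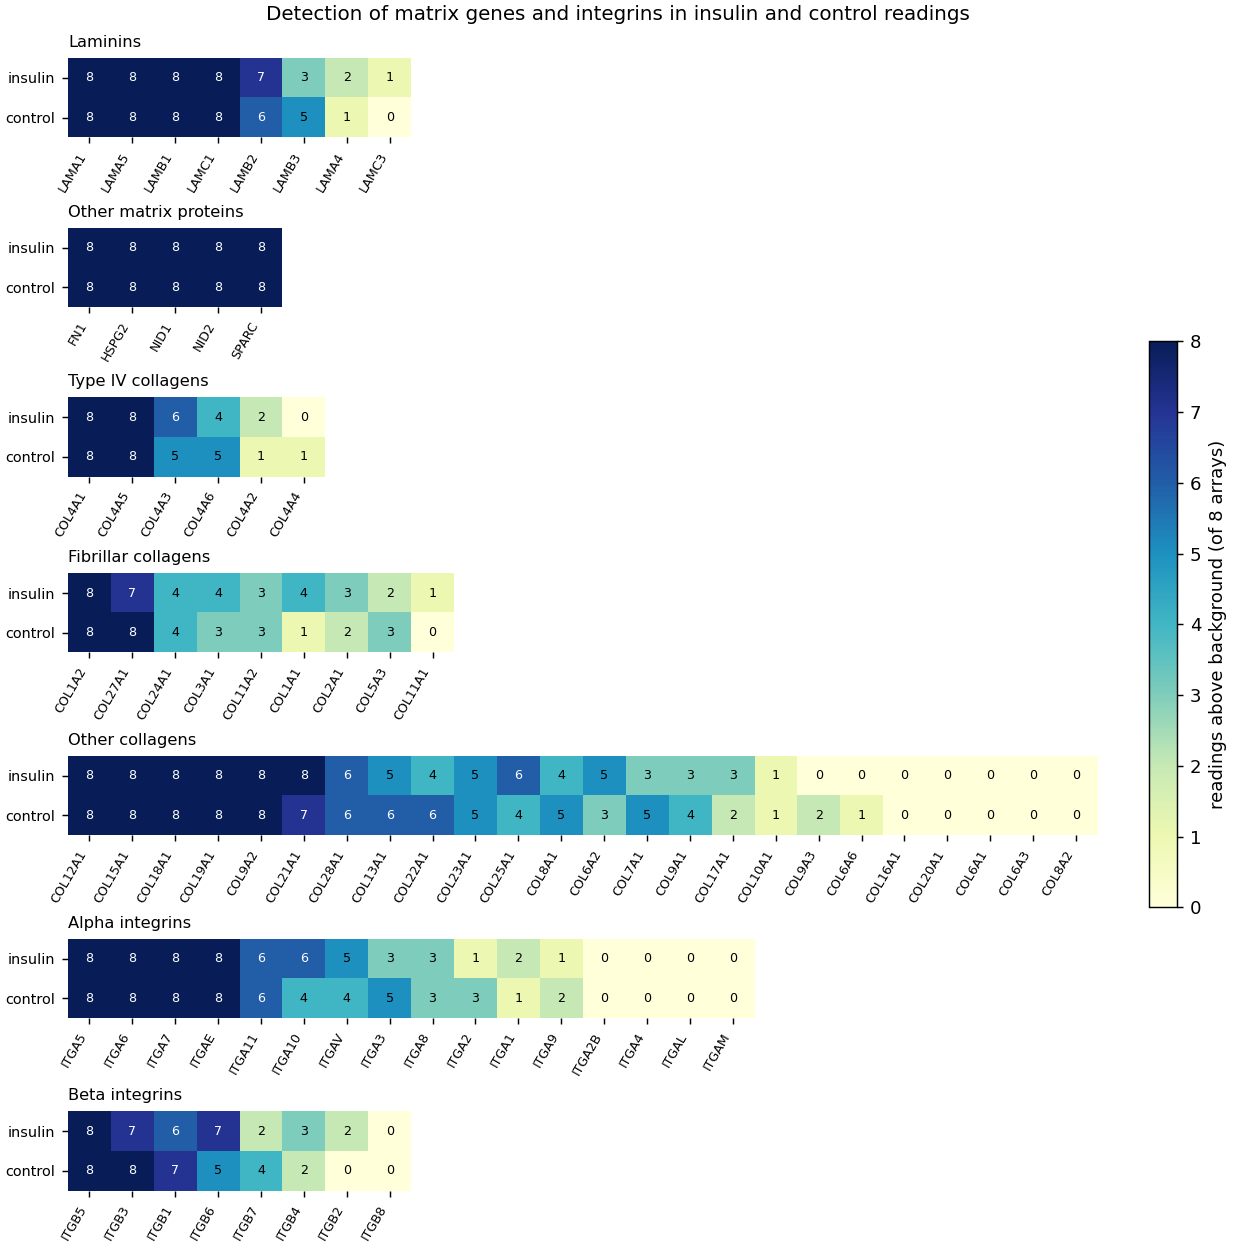
Number of readings above background in insulin (upper row, of 8) and control RNA (lower row, of 8) for each of 52 matrix genes and 24 integrins, grouped by role. The 5 matrix proteins FN1, HSPG2, NID1, NID2 and SPARC had 8 readings in both, and most of the integrins had fewer.

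The numbers of genes detected in insulin and control RNA overlapped. Per array, 25 to 34 of the 52 matrix genes were above background in insulin RNA and 27 to 34 in control RNA. For the 24 integrins the counts were 8 to 15 in insulin RNA and 8 to 15 in control RNA. On the INS0.1 arrays the matrix counts differed with the dye. They were 26 and 25 with insulin in Cy5 (control 30 and 30) and 34 and 34 with insulin in Cy3 (control 27 and 30). Of all probes on these arrays, 44.1% to 48.7% were detected in Cy5 and 52.8% to 56.4% in Cy3. On the INS10 arrays these shares were 54.2% to 58.8% in Cy5 and 51.6% to 58.7% in Cy3.

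The main question put to these genes was whether insulin during oocyte maturation altered their transcripts in the blastocyst. With insulin at either dose, that is the average of the INS10 and INS0.1 effects, ITGB5 was the only gene of the 56 to pass the test, and it was higher. ITGB5 encodes the beta chain that pairs with the alpha V chain in a receptor for vitronectin. That is 1 of 56 genes tested, against 2.32% of all named genes tested (2.12% higher and 0.196% lower, limma with Benjamini-Hochberg adjustment over all detected probes, threshold 0.05). At an unadjusted p under 0.05 there were 4 genes (ITGB5, NID2, COL18A1 and LAMB2), against 11.8% of the named genes.

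In INS10 blastocysts, ITGB5 had normalised intensities of 877, 707, 749 and 541 on replicates 1 to 4, against 431, 515, 497 and 409 in the control RNA of the same arrays. In INS0.1 blastocysts it had 496, 740, 1058 and 648, against 402, 458, 653 and 475 in control RNA. Each INS10 reading was above each of its control readings, whereas the INS0.1 readings overlapped with theirs. The log2 ratios of insulin over control were 1.02, 0.46, 0.59 and 0.40 on the INS10 arrays and 0.31, 0.69, 0.70 and 0.45 on the INS0.1 arrays, above 0 on 8 of 8. The fitted difference was 1.49-fold (log2 0.58, SE 0.11, 95% interval 0.35 to 0.81, limma adjusted p = 0.00554). It had the same size in both dye orientations, with mean log2 ratios of 0.62 on the arrays with insulin in Cy5 and 0.54 on those with insulin in Cy3. Without INS0.1 replicate 1 the log2 ratio was 0.63 (limma adjusted p = 0.00355). RNA was taken from whole blastocysts, so more ITGB5 RNA per cell and more cells of a type that expresses it cannot be told apart.

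**Figure D2:**
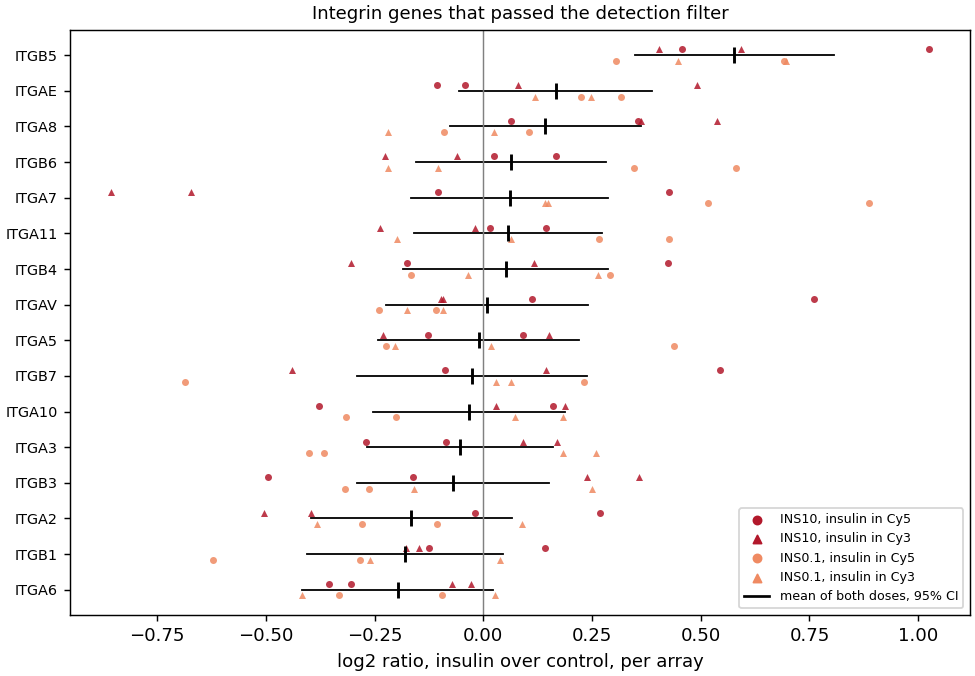
Log2 ratio of insulin over control on each array for the 16 integrins that passed the detection filter, with INS10 arrays above INS0.1 arrays in each row and the fitted mean of both doses with its 95% interval in black. ITGB5 stands at 0.58 with its 8 arrays to the right of 0, and the other 15 intervals include 0.

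The remaining beta chains gave no call. ITGB1, the partner of most alpha chains and the main receptor chain for laminin, collagen and fibronectin, had 13 readings above background and a log2 ratio of −0.18 (SE 0.11). Its ratios were −0.13, 0.14, −0.18 and −0.15 on the INS10 arrays and −0.28, −0.62, −0.26 and 0.04 on the INS0.1 arrays, so 6 of 8 were below 0. ITGB3, another partner of the alpha V chain, stood at −0.07, ITGB4 at 0.05, ITGB6 at 0.06 and ITGB7 at −0.03. ITGAV itself, the alpha chain with which ITGB5 assembles, was at 0.01 (SE 0.11, 9 readings), with 1 high ratio of 0.76 on INS10 replicate 1 and the others between −0.24 and 0.11.

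Among the alpha chains, ITGA6, which forms laminin receptors with ITGB1 or ITGB4, was lower on 7 of 8 arrays, without passing the test. Its intensities were 259, 318, 277 and 391 in INS10 blastocysts, against 331, 393, 291 and 398 in control RNA. In INS0.1 blastocysts they were 225, 261, 315 and 308, against 241, 329, 310 and 412 in control RNA. The readings overlapped at both doses, and the fitted log2 ratio was −0.20 (SE 0.11, limma adjusted p = 0.565). ITGA5, the fibronectin receptor chain, stood at −0.01 and the collagen receptor chain ITGA2 at −0.17. ITGA2 had 4 readings above background, of which 0 of 4 were in INS0.1 blastocysts. ITGAE, which pairs with ITGB7 in a receptor for E-cadherin, had a log2 ratio of 0.17 and was higher on 6 of 8 arrays. Its ratios were −0.04, −0.11, 0.49 and 0.08 on the INS10 arrays and 0.23, 0.32, 0.25 and 0.12 on the INS0.1 arrays, above 0 on 4 of 4 of the INS0.1 arrays. ITGAE overlaps HASPIN in the RefSeq table, ITGA7 overlaps TMT1B and ITGA2 overlaps MOCS2. Of the matrix genes, HSPG2 overlaps LDLRAD2 and LOC132343458, and COL18A1 overlaps LOC132345988. Which of the overlapping genes a probe reads was not tested. ITGA8, a chain of a further matrix receptor, had 0.14, from ratios of 0.35, 0.06, 0.54 and 0.36 on the INS10 arrays and −0.09, 0.11, −0.22 and 0.02 on the INS0.1 arrays. It had 6 readings above background, with 1 of 4 in INS10 blastocysts and 0 of 4 in the control RNA of those arrays, where its level has an upper bound and no value.

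The laminins of the embryonic basement membrane gave no call. LAMA1 stood at log2 −0.06 (SE 0.14), LAMB1 at −0.17 (SE 0.12) and LAMC1 at −0.13 (SE 0.10). LAMC1 had intensities of 2263, 2397, 2626 and 2727 in INS10 blastocysts, against 2837, 2745, 2784 and 2896 in control RNA. In INS0.1 blastocysts it had 2926, 2969, 3223 and 3394, against 2954, 2820, 3751 and 3895 in control RNA. Each INS10 reading lay below each of its control readings, while the INS0.1 readings overlapped with theirs. The gene had 2 more probes, both with 16 readings, at log2 −0.18 and −0.23, so the direction was shared and none of the 3 passed the test (the lowest unadjusted p was 0.0430). LAMA1 moved widely between arrays. Its ratios were 0.52, −0.26, 0.12 and −0.53 on the INS10 arrays and 0.13, −0.65, 0.64 and −0.48 on the INS0.1 arrays. They had the same sign at both doses for replicates of the same number. LAMB1 had 0.10, −0.57, −0.03 and 0.28 on the INS10 arrays and −0.03, −0.37, −0.15 and −0.55 on the INS0.1 arrays, below 0 on 6 of 8. LAMA5, the alpha chain of a laminin widespread in adult basement membranes, had 0.36, −0.19, −0.73 and −0.52 on the INS10 arrays and 0.36, 0.22, −0.15 and −0.26 on the INS0.1 arrays. The 3 ratios above 0 lay on arrays with insulin in Cy5, and the fitted log2 ratio was −0.11 (SE 0.11). LAMB3, an epidermal laminin chain, stood at −0.06 with 8 readings above background.

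LAMB2, the beta chain that takes the place of LAMB1 in later basement membranes, was the only other gene of the 56 with the same sign on 8 of 8 arrays. With ITGB5 that makes 2 of 56, against 2.38% of the named genes (1.66% higher and 0.725% lower). LAMB2 had intensities of 201, 233, 271 and 213 in INS10 blastocysts, against 133, 199, 188 and 191 in control RNA. In INS0.1 blastocysts it had 148, 287, 312 and 269, against 129, 240, 249 and 247 in control RNA. Each INS10 reading was above each of its control readings, and the INS0.1 readings overlapped with theirs. These values lay close to background, with 13 of 16 readings above it. The log2 ratio was 0.30 (SE 0.11, limma adjusted p = 0.223; 0.31 without INS0.1 replicate 1), 0.32 with insulin in Cy5 and 0.28 with insulin in Cy3.

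NID2, a nidogen that links laminin to type IV collagen, had the largest negative ratio of the 56 genes. Its intensities were 523, 337, 254 and 447 in INS10 blastocysts, against 518, 411, 642 and 579 in control RNA. In INS0.1 blastocysts they were 523, 301, 339 and 320, against 435, 337, 616 and 461 in control RNA. The readings overlapped at both doses, and replicate 1 was not lower with insulin at either. The fitted log2 ratio was −0.41 (SE 0.12, limma adjusted p = 0.1005). The mean ratio was −0.78 on the arrays with insulin in Cy3 and −0.04 on those with insulin in Cy5. Without INS0.1 replicate 1 it was −0.45 (limma adjusted p = 0.0853). Without INS10 replicate 4 the gene passed the test (log2 −0.51, limma adjusted p = 0.0352), and over 19 alternatives the adjusted p ran from 0.0352 to 0.390. NID2 overlaps LOC613519 in the RefSeq table.

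NID1, the other nidogen, stood at −0.07 (SE 0.14) and HSPG2, the heparan sulphate proteoglycan of basement membranes, at −0.14 (SE 0.11). The ratios of NID1 were 0.60, −0.26, 0.35 and 0.14 on the INS10 arrays and 0.50, −1.13, −0.37 and −0.40 on the INS0.1 arrays. Insulin readings were thus higher on 3 of 4 INS10 arrays and lower on 3 of 4 INS0.1 arrays, and both doses had the replicate 2 array lower. FN1, the fibronectin bound by the ITGA5 receptor, had a log2 ratio of −0.10 (SE 0.10), with intensities of 41827 to 62350 in INS10, 39328 to 57832 in INS0.1 and 47537 to 60386 in control RNA. Its ratios were 0.39, 0.14, −0.13 and −0.34 on the INS10 arrays and 0.13, −0.10, −0.57 and −0.36 on the INS0.1 arrays, so that 3 of 8 were above 0, each with insulin in Cy5. A single raw FN1 reading was saturated (65535), and FN1 had the highest normalised intensities of these genes. SPARC, a collagen-binding protein of embryonic matrix, stood at −0.04 (SE 0.12), with 3665 to 6125 in INS10, 3803 to 6105 in INS0.1 and 3425 to 7103 in control RNA. Its ratio was below 0 on 5 of 8 arrays, and the readings overlapped at both doses. As the mean of both doses, the 5 matrix proteins that are neither collagen nor laminin had ratios from −0.41 to −0.04, and 0 of 5 passed the test. On the INS10 arrays alone NID1 (0.21), SPARC (0.06) and FN1 (0.02) were above 0, and over 19 alternatives the mean of both doses changed sign for NID1 (−0.24 to 0.08) and SPARC (−0.14 to 0.04).

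**Figure D3:**
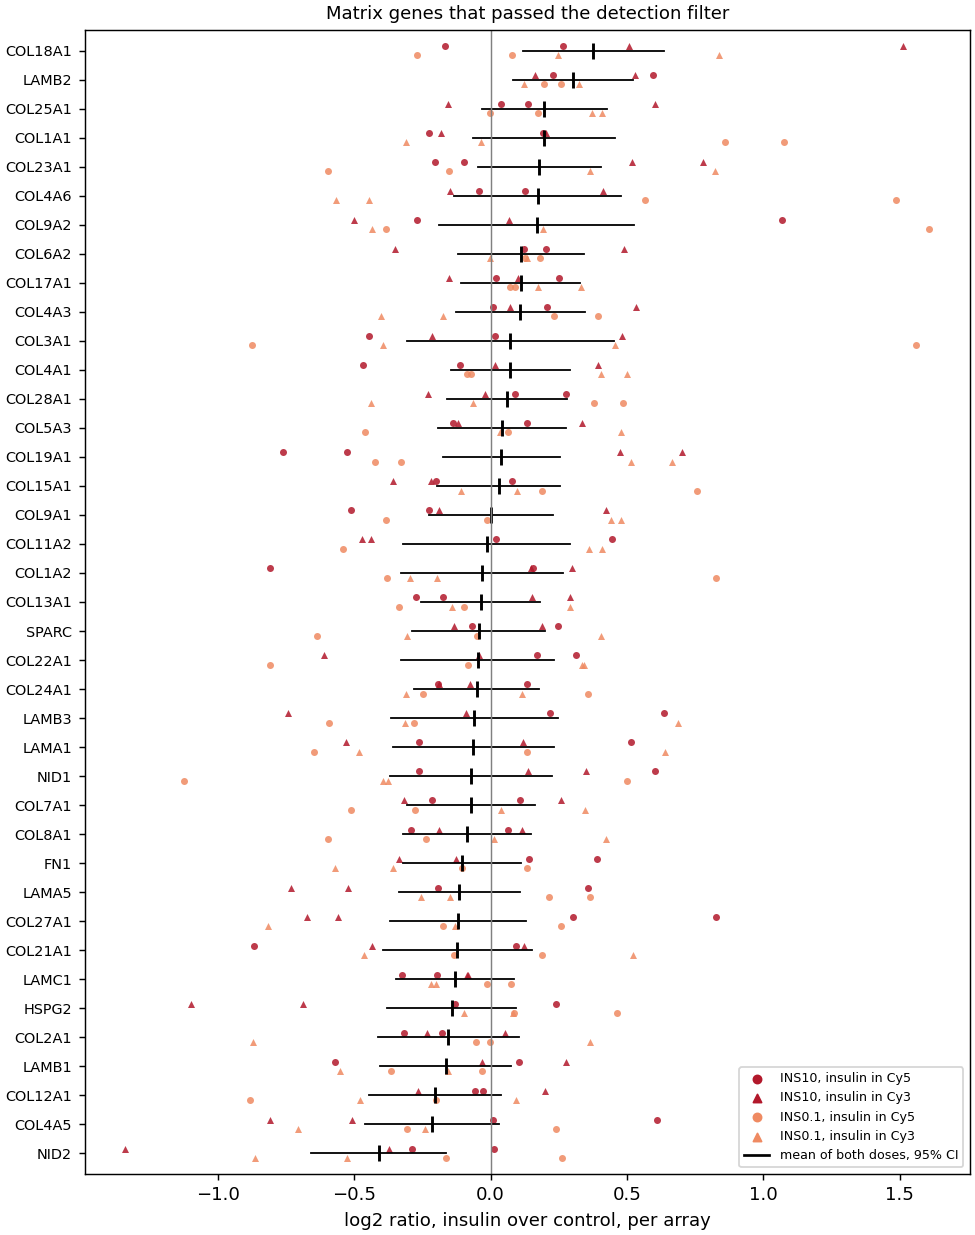
Log2 ratio of insulin over control on each array for the 39 matrix genes that passed the detection filter, with INS10 arrays above INS0.1 arrays in each row and the fitted mean of both doses with its 95% interval in black. The means run from −0.41 for NID2 to 0.38 for COL18A1, and circles and triangles, the 2 dye orientations, lie on opposite sides of 0 for COL19A1.

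Of the type IV collagens, COL4A1 had a log2 ratio of 0.07 (SE 0.10) and COL4A5 one of −0.21 (SE 0.12). The intensities of COL4A1 were 2805, 3146, 2773 and 1848 in INS10 blastocysts, against 3882, 3397, 2112 and 1826 in control RNA. In INS0.1 blastocysts they were 4639, 3225, 4190 and 3388, against 4877, 3423, 3168 and 2395 in control RNA. Insulin readings were higher on replicates 3 and 4 (insulin in Cy3) and lower on replicates 1 and 2 (insulin in Cy5) at both doses. COL4A5 had ratios of 0.61, 0.01, −0.51 and −0.81 on the INS10 arrays and 0.24, −0.31, −0.71 and −0.24 on the INS0.1 arrays, with insulin in Cy3 lower on each of 4 arrays. A second probe of COL4A5 that passed the filter had the opposite sign (0.05, 7 readings). COL4A6, the neighbour of COL4A5, was at 0.17 and COL4A3 at 0.11.

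COL18A1, whose product carries the endostatin fragment at its end, had the largest positive ratio of the matrix genes. Its intensities were 318, 336, 726 and 309 in INS10 blastocysts, against 357, 280, 254 and 217 in control RNA. In INS0.1 blastocysts they were 254, 243, 528 and 250, against 241, 292, 295 and 211 in control RNA. Replicate 3 was high with insulin at both doses, and the readings otherwise overlapped with those of the control. The log2 ratio was 0.38 (SE 0.12, limma adjusted p = 0.184; 0.33 without INS0.1 replicate 1), with means of −0.02 with insulin in Cy5 and 0.78 with insulin in Cy3. Replicates of opposite dye orientation are also different replicates, so dye and replicate cannot be told apart for any gene, COL18A1 and NID2 among them.

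COL25A1, a transmembrane collagen, had a log2 ratio of 0.20 and COL12A1 one of −0.20. COL12A1 had intensities of 773, 826, 1185 and 741 in INS10 blastocysts, against 805, 842, 1031 and 890 in control RNA. In INS0.1 blastocysts it had 783, 565, 835 and 977, against 900, 1041, 1162 and 916 in control RNA. INS0.1 replicate 2 gave the lowest ratio (−0.88), and the readings overlapped at both doses. COL15A1, the basement membrane collagen most like COL18A1, stood at 0.03. COL1A2 stood at −0.03 and COL1A1 at 0.20, picked out after their values were seen, as was COL19A1 below. COL1A2 had 1076 to 1510 in INS10, 1679 to 1981 in INS0.1 and 965 to 2401 in control RNA. The 16 collagens outside the fibrillar and type IV classes that passed the filter ran from −0.20 to 0.38 (10 above 0), and the 8 fibrillar ones from −0.15 to 0.20 (3 above 0). The dye term, which also sets replicates 1 and 2 against replicates 3 and 4, passed the test for COL19A1, COL23A1 and COL27A1. These are 3 of the 56, against 4.18% of the named genes. COL19A1 had a mean log2 ratio of −0.51 with insulin in Cy5 and 0.59 with insulin in Cy3, and 0.04 over both. COL11A2 was fitted on 7 arrays, since its spot on INS0.1 replicate 1 was marked to be ignored.

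**Figure D4:**
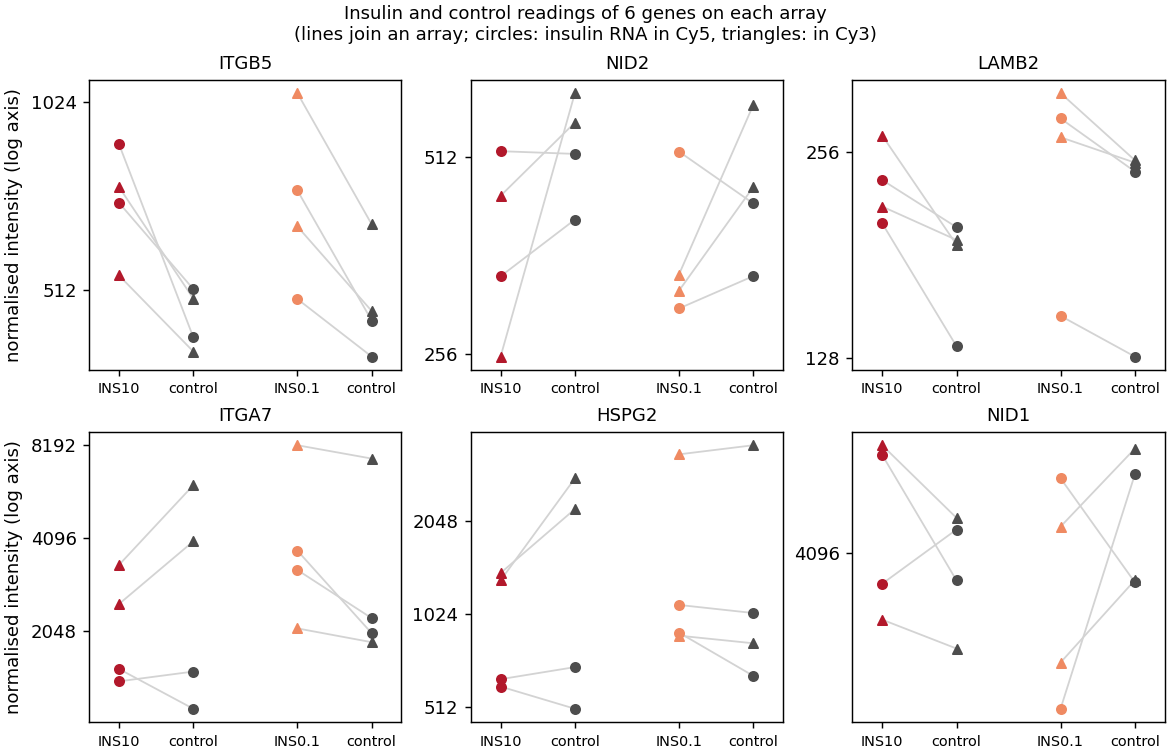
Normalised intensities (log axis) of insulin RNA and control RNA for 6 genes, with lines joining the readings of an array, INS10 arrays left of INS0.1 arrays, and circles for insulin in Cy5 and triangles for Cy3. ITGB5 and LAMB2 are higher in insulin than in control RNA on each of 8 lines, and HSPG2 and ITGA7 differ more between arrays than between insulin and control.

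Matrix genes and receptors were then set side by side. The median log2 ratio was −0.04 over the 39 matrix genes (17 above 0) and −0.00 over the 16 integrins (8 above 0), against −0.01 over the named genes, of which 47.9% were above 0. Per array the matrix median ran from −0.09 to 0.08, the integrin median from −0.23 to 0.05, and their difference from −0.14 to 0.16 (above 0 on 5 arrays). Over the genes with 16 readings, the matrix median was −0.07 (5 of 17 above 0) and was below 0 on 7 of 8 arrays, while the integrin median was 0.06 over 5 genes and was above 0 on 6 of 8. The matrix median of these genes was the lower one on 6 of 8 arrays, among them 4 of 4 INS0.1 arrays. It ran from −0.27 to 0.09 per array, and the integrin median from −0.10 to 0.32. On each array the integrin median over 5 genes is the ratio of 1 gene, which on INS0.1 replicate 1 was ITGB5 (0.31). Over all genes that passed the filter, the fitted INS0.1 medians stood the other way, at 0.03 for matrix genes and −0.06 for integrins. There, matrix minus integrin medians were 0.16, 0.15, −0.03 and −0.10 on the INS0.1 arrays. The difference between matrix genes and integrins was not tested. The median over named genes with 16 readings was −0.02.

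**Figure D5:**
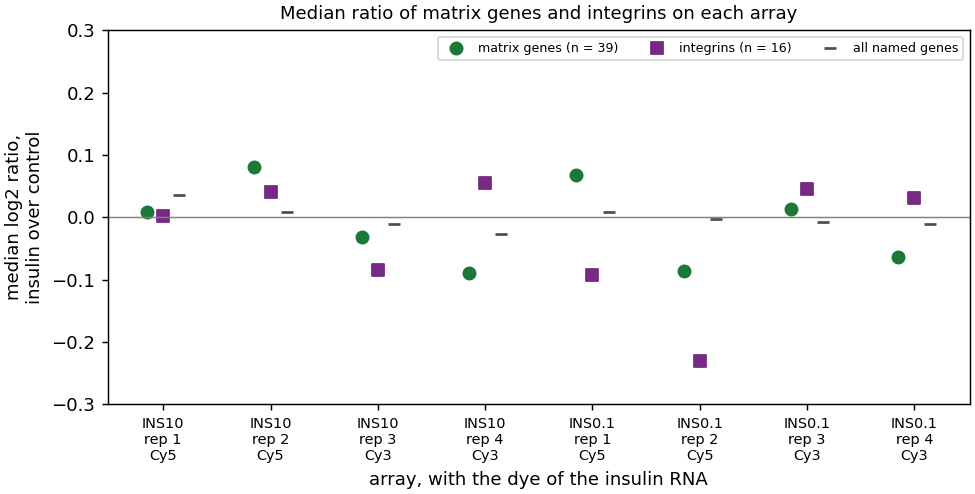
Median log2 ratio of insulin over control on each array for 39 matrix genes, 16 integrins and the named genes, with the dye of the insulin RNA under each array. Matrix medians lie between −0.09 and 0.08 and integrin medians between −0.23 and 0.05, on both sides of 0.

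The doses were next taken apart. With INS10 over control, limma called 0 of the 56 genes, against 0.589% of the named genes (0.58% higher and 0.00853% lower), and 6 had an unadjusted p under 0.05 (ITGB5, NID2, COL18A1, HSPG2, LAMB2 and ITGA8), against 7.89%. With INS0.1 over control it called 0, against 0.145%, and 4 had an unadjusted p under 0.05 (ITGB5, ITGA7, COL1A1 and COL12A1), against 8.8%. ITGB5 had a log2 ratio of 0.62 ± 0.28 on the INS10 arrays and 0.54 ± 0.19 on the INS0.1 arrays (SD, n = 4 each), with limma adjusted p of 0.0975 and 0.212. When the 4 INS10 arrays were fitted alone, ITGB5 passed the test (limma adjusted p = 0.0490). That was 1 of 20 alternatives for the INS10 value, over which the log2 ratio ran from 0.47 to 0.70 and the adjusted p from 0.0490 to 0.862, the highest without INS10 replicate 1. Both doses were set against control RNA of the same replicate numbers, which may be shared, and each dose lay on a slide of its own, so dose and slide cannot be told apart.

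The difference between INS10 and INS0.1 was tested directly, and limma called 0 of the 56 genes, against 0% of the named genes. An unadjusted p under 0.05 was reached by ITGA7 and HSPG2, against 2.85% of the named genes. ITGA7, the laminin-binding alpha chain known from muscle, had log2 ratios of −0.10, 0.43, −0.67 and −0.86 on the INS10 arrays and 0.52, 0.89, 0.15 and 0.14 on the INS0.1 arrays. The difference was −0.73 (unadjusted p = 0.00324), and the doses overlapped through INS10 replicate 2. HSPG2 had −0.13, 0.24, −0.69 and −1.10 on the INS10 arrays and 0.09, 0.46, 0.08 and −0.10 on the INS0.1 arrays, a difference of −0.55 (unadjusted p = 0.0238). The lowest INS10 ratios of both genes lay on replicates 3 and 4, with insulin in Cy3. Over both doses the mean ratio of ITGA7 was 0.43 with insulin in Cy5 and −0.31 in Cy3. For HSPG2 these means were 0.17 and −0.45. The INS10 and INS0.1 ratios lay apart without overlap for 0 of the 56 genes, against 1.2% of the named genes. NID1 differed by 0.56 and COL15A1 by −0.41, without reaching that level. These differences moved when 1 array was left out. When INS0.1 replicate 2 was omitted, NID1 differed by 0.25 and COL15A1 by −0.27. Omitting INS0.1 replicate 1 gave 0.90 for NID1, −0.50 for COL15A1, −0.84 for ITGA7 and −0.70 for HSPG2.

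The levels of HSPG2 and ITGA7 varied far more between arrays than with insulin. HSPG2 had intensities of 629, 595, 1387 and 1314 in INS10 blastocysts, against 688, 504, 2236 and 2811 in control RNA, and of 1094, 890, 870 and 3362 in INS0.1 blastocysts, against 1030, 645, 822 and 3598 in control RNA. ITGA7 had 1408, 1544, 2502 and 3347 in INS10 blastocysts, against 1514, 1148, 3989 and 6056 in control RNA, and 3224, 3723, 2088 and 8151 in INS0.1 blastocysts, against 2253, 2014, 1884 and 7382 in control RNA. Control readings spanned 7.14-fold for HSPG2 and 6.43-fold for ITGA7, and the median span over the 23 genes with 16 readings was 1.95-fold. For both genes replicate 4 gave the highest control reading at each dose and INS10 replicate 2 the lowest.

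Enzymes and partners of the same pathway were read from 4 lists. For comparison, 76.9% of the named genes passed the filter. With insulin at either dose, 2.32% of those tested were called (2.12% higher and 0.196% lower). Of the collagen processing list, 21 of 24 genes on the array passed the filter and PLOD2, a lysyl hydroxylase that prepares collagen for cross-linking, was higher with insulin at either dose (log2 0.54, SE 0.12, 8 of 8 arrays, limma adjusted p = 0.0259). That call was lost in the fit with a block on the replicate number and a dye effect for each slide (limma adjusted p = 0.0746). The adjusted p ran to 0.458 over 19 alternatives, of which 9 kept it. It was also lost without INS10 replicate 1, 3 or 4 and without INS0.1 replicate 2 or 3 (adjusted p = 0.0767 to 0.131). With the mean of all detected probes of the gene, the log2 ratio of PLOD2 was 0.22 (adjusted p = 0.458). Of 30 integrin adaptors and signalling genes tested, FLNA, the filamin that ties integrin tails to actin, was higher (log2 0.63, SE 0.14, 7 of 8 arrays, limma adjusted p = 0.0155). It kept the call in 13 of 19 alternatives and lost it without the dye term (adjusted p = 0.0825) and without INS10 replicate 1, 2 or 3 or INS0.1 replicate 2 or 3 (0.0576 to 0.0948). The talin gene TLN1 (0.03), VCL (−0.06), ILK (−0.02) and the focal adhesion kinase gene PTK2 (−0.22), picked out after their values were seen, did not pass the test.

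Of 26 matrix proteases and inhibitors tested, limma called 0, and the 3 with the smallest p were MMP15 (log2 0.33), MMP23B (0.34) and MMP11 (−0.26). Of 31 proteoglycans and other matrix receptors, CD81, a tetraspanin that binds integrins in the membrane, was higher (log2 0.91, SE 0.13, 7 of 8 arrays, limma adjusted p = 0.000538). In the same list CYR61, a matricellular protein and integrin ligand, was lower on 8 of 8 arrays (log2 −0.58, SE 0.11, limma adjusted p = 0.00539). Both kept their calls in 19 of 19 alternatives. Without INS0.1 replicate 1 the log2 ratios were 0.62 for PLOD2, 0.75 for FLNA, 0.99 for CD81 and −0.59 for CYR61, each past the test. The medians of the 4 lists lay between 0.01 and 0.08.

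A few markers of the cell types in a blastocyst were higher with insulin at either dose, namely 2 of 14 trophectoderm, 2 of 10 inner cell mass and 1 of 11 hypoblast markers tested, against 2.12% of the named genes. Of the trophectoderm list TEAD4 (log2 0.69) and GATA2 (0.57) were higher, of the inner cell mass list SOX2 (0.69) and DNMT3B (0.51, limma adjusted p = 0.0317, or 0.0544 in the blocked fit), and of the hypoblast list APOA1 (0.68). Summed intensities of the trophectoderm markers ran from 156759 to 193945 in INS10, 165961 to 195177 in INS0.1 and 136877 to 184048 in control RNA. Those of the inner cell mass ran from 23819 to 33638 in INS10, 21073 to 29261 in INS0.1 and 20509 to 27195 in control RNA. Those of the hypoblast ran from 46281 to 50169 in INS10, 36192 to 56303 in INS0.1 and 43951 to 58311 in control RNA. Among cells that could come along with an embryo, 8 of 15 cumulus and granulosa markers were tested and CYP11A1 was higher (0.84). CYP11A1 and STAR had 16 readings, INHBA 15, GATM 14 and CYP19A1 13, while AMHR2, FOXL2, FST and INHA had 0. The sum of the tested cumulus and granulosa markers ran from 6367 to 8907 in INS10, 3143 to 12473 in INS0.1 and 3449 to 6760 in control RNA. Of the sperm markers PRM1 was lower (−0.64), with a sum of 1655 to 2131 in INS10, 1973 to 2601 in INS0.1 and 1995 to 2880 in control RNA. The fibroblast list passed 4 of 12 genes, ACTA2 (16 readings), THY1 (15), POSTN (14) and LUM (12). Its genes FAP, PDGFRB, MYH11, MGP, OGN and FBLN1 had 0 readings. The leukocyte list passed 7 of 12, led by PTPRC (16 readings), TYROBP (13) and CD68 (11). Its genes CD14, CORO1A, CSF1R, LCP1 and LYZ had 0. The endothelial list passed 5 of 8 genes and the oocyte list 7 of 12, where 76.9% of the named genes passed. Neither these lists nor the fibroblast and leukocyte ones had a gene past the test. The part of these cell types in the ITGB5 result was not tested.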

How the data were processed

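Median spot intensities of both dyes, with the local background, were taken from the deposited scanner tables, per the file headers. Per the labels' protocols, RNA was amplified in 2 rounds before labelling, and ratios can carry bias from that step. A deposited table of processed log2 ratios served as an alternative, and its scale and direction were read from its correlation with the scanner values. Its steps were not stated. Intensities were corrected with normexp (offset 50) and normalised within arrays by loess. Intensities quoted per dye were also quantile-normalised on average intensity. Probes were kept if detected in at least 4 of 16 readings, which left 29384 of 43794. The limma package (3.58.1, under R 4.3.3) fitted the log2 ratios of all 8 arrays with an effect for each dose and a dye term, and p-values were adjusted over all kept probes. The script was tested on simulated data.

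The number of arrays limits the precision. The replicate numbers pair the samples: deviations of same-numbered arrays from the dose and dye means correlated at 0.261 for numbers 1 and 2 and at 0.223 for numbers 3 and 4. For insulin over control, a block on the number was an alternative, fitted with a dye effect for each slide in place of the shared dye term. Of the 77 symbols, 76 were current in a RefSeq table of assembly ARS-UCD2.0 and 1 was a synonym, and no coordinates are given. A rule named the genes past the test and the 6 matrix genes and 6 integrins with the smallest p. It also named the 4 with the smallest p between doses and 14 core genes. From each list it took those past the test or else up to 3 by p. Other genes given with their ratios were named outside this rule, with their values known. Among them are COL9A2, LAMA5, LAMB3, COL4A3, COL4A6, ITGB3, ITGB4, ITGB6 and ITGB7. The members and lists were chosen with earlier results of these data known.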

Additional observations from a re-analysis of the deposited data

Results flagged for a closer look

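Of 52 groups of 4 arrays examined (the log2 ratios of 24 named genes and the matrix and integrin medians, at each dose), 1 had an array far from the other 3. ITGB1 had a log2 ratio of 0.14 on INS10 replicate 2, against −0.18 to −0.13 on the other INS10 arrays. Chance flags about 1 in 20 such groups.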

How the results depend on the processing

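The call of ITGB5 with insulin at either dose held under each of 19 alternatives (log2 0.50 to 0.63, limma adjusted p 0.00355 to 0.0398), among them no background correction, median centring, the deposited ratios, no dye term and each array left out. Leaving out 1 array gave 1 to 2 called genes, the second being NID2 without INS10 replicate 4. With INS10 over control, 1 gene (ITGB5) was called in place of 0 when the 4 arrays of the dose were fitted alone. The number of detected genes was 56 at 4 readings and 23 at all 16. With the replicate block, 1 gene was called at either dose (ITGB5, adjusted p = 0.0140) and 0 in the other comparisons, so the block changed no call other than those of PLOD2 and DNMT3B. The cause of these changes was not tested. Of the single-gene values, 18 changed sign while staying uncalled. Depth limits LAMB2, ITGB1, ITGAV and the other genes with under 16 readings, whose probes lay near background.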

Other observations

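The order of the replicates was compared between the control readings of both slides. Of the 38 matrix genes with a value on every array, 19 (50%) had the same order of replicates 1 and 2, and of replicates 3 and 4, in the control RNA of the INS10 and INS0.1 arrays, against 47.5% of the named genes. Of the 17 matrix genes with 16 readings, 13 (76.5%) did, and of the 5 integrins with 16 readings 4 (80%) did, against 51.9% of the named genes with 16 readings. In insulin RNA it was 3 of these 17 matrix genes (17.6%) and 1 of the 5 integrins (20%), against 33.7%. Of the 16 integrins that passed the filter, 10 (62.5%) kept the order in control RNA and 7 (43.8%) in insulin RNA. The named genes gave 47.5% and 34.0%. The dose of the insulin RNA differs between the slides, and its part in this was not tested. This comparison was chosen after the data were seen.

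COL9A2, a chain of type IX collagen, had log2 ratios of −0.27, 1.07, 0.07 and −0.50 on the INS10 arrays and −0.38, 1.61, −0.43 and 0.19 on the INS0.1 arrays. Replicate 2 was high at both doses, with insulin readings of 1691 in INS10 and 2428 in INS0.1 blastocysts, against 807 and 796 in control RNA. Its mean over both doses was 0.17 (SE 0.17). This gene was picked out after its values were seen.

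ITGA5 differed between replicates in both RNAs. It had 3038, 3526, 1218 and 1568 in INS10 blastocysts, against 3319, 3312, 1429 and 1412 in control RNA, and 4638, 3040, 1517 and 1220 in INS0.1 blastocysts, against 3423, 3549, 1498 and 1404 in control RNA. Replicates 1 and 2 were above replicates 3 and 4 throughout.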
